A study of Mus musculus with 3 samples.

Results

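The hepatocyte nuclear factor genes Hnf4a, Hnf4g, Onecut1, Foxa1 and Foxa3 were examined for H3K4me1 enriched regions in mouse pancreatic islets. Regions were taken when they overlapped 1 of the 5 genes or lay within 50 kb of any of its transcriptional start sites (TSS), which gave 31 of the 65709 regions in the list. The rule used position alone, and no region served 2 of the genes. Islets from CD1 mice (ICR in the methods), aged 8 to 12 weeks by the labels (a narrower range in the methods) and of both sexes, recovered after isolation and were then cultured in RPMI for 4 days with TNFα (0.16 ng/ml), IL-1β (0.25 ng/ml) and IFNγ (1.6 ng/ml). DNA from several ChIP experiments, on islets pooled from several mice, was combined into 1 H3K4me1 library. Untreated islets and the RNA of either condition were not analysed here, so every value below is a description of cytokine treated islets, with no replicate and no test across samples. The list holds positions only. Depth and enrichment are therefore unknown, and a missing region can mean that H3K4me1 was below the calling threshold at this depth.

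Hepatocyte nuclear factors are transcription factors first found through liver promoters, and they belong to unrelated protein families. Hnf4a and Hnf4g are nuclear receptors, Onecut1 (HNF6) carries a cut domain beside a homeodomain, and Foxa1 and Foxa3 (HNF3α and HNF3γ) are forkhead proteins that can bind closed chromatin. In the pancreas they act from the early bud onwards, and mutations of human HNF4A cause maturity onset diabetes of the young. Hnf4a is transcribed from a distal promoter, P2, which is the main one in islets, and from a proximal promoter, P1, which is the main one in liver. H3K4me1 is the monomethylation of histone 3 at lysine 4, a mark of active and poised promoters and enhancers.

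To show the promoters that the results turn on, the 250 bases upstream of 5 TSS are given from the mm9 reference (NCBIM37), 5′ to 3′ on the strand of the gene. Capitals mark 3 words: the run GTTACTGTTTAAC, which the upstream sequences of Hnf4a P2 and Hnf4g share, the word ATCAATA of Onecut factors, and the word TGTTTAC of Foxa factors, here read from the other strand. None of these words was found in the sequences of Hnf4a P1 and Onecut1. Hnf4a P2 lies at chr2:163332294-163332543 (plus strand), Hnf4a P1 at chr2:163372673-163372922 (plus), Hnf4g at chr3:3507780-3508029 (plus), Onecut1 at chr9:74709478-74709727 (plus) and Foxa1 at chr12:58647109-58647358 (minus).
Hnf4a P2: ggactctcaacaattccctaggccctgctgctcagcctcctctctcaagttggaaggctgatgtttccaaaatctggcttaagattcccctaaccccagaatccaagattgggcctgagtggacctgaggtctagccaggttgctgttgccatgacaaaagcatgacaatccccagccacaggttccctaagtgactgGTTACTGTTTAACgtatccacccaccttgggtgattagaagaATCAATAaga
Hnf4a P1: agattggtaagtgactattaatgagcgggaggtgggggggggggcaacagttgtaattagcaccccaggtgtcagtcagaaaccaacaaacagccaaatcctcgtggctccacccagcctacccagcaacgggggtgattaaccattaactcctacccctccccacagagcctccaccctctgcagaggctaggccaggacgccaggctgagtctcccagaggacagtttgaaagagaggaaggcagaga
Hnf4g: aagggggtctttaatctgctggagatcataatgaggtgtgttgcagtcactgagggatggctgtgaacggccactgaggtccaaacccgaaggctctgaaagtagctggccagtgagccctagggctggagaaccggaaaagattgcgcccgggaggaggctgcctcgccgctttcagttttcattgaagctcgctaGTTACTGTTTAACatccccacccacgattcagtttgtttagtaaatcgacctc
Onecut1: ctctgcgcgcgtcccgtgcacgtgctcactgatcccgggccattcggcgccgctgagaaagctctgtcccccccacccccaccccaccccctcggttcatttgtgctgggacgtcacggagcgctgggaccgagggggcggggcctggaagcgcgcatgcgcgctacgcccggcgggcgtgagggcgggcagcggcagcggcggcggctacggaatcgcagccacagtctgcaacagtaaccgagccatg
Foxa1: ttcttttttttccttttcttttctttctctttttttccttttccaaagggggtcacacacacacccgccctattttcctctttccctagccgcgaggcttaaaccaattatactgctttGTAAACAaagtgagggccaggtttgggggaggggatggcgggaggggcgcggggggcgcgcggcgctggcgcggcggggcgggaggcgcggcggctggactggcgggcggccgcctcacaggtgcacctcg

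All 5 genes had a region over at least 1 TSS. Among all 22350 protein-coding genes of chromosomes 1 to 19 and X, 39.1% had one. The genes differed in which TSS was covered and in how the regions were spread. The 5 genes have 13 annotated TSS, of which 7 lay inside a region. Of the first TSS of all protein-coding genes, 31.1% lay inside a region. The share over all annotated TSS is not given here, so nothing is read from the count of 7. The 31 regions had a median width of 1400 bp, against 1200 bp for the whole list, and together covered 67.6 kb. Of them, 14 overlapped the gene they were counted for and 17 lay beside it. A total of 8 fell outside any annotated gene. The shares of all regions in these positions are not given here, so nothing is read from these counts. By the distance from the midpoint to the closest TSS of any gene, 14 of the 31 regions were promoter regions (within 2 kb). A further 15 were proximal enhancers (2 to 20 kb) and 2 were distal enhancers (20 to 100 kb). Over all 65650 regions with an assigned class, the shares were 23.6% promoter, 38.5% proximal, 29.0% distal and 8.86% intergenic (over 100 kb). The rule took regions near a TSS, so nothing is read from this difference. The closest TSS was that of the gene itself for 12 regions and that of another annotated gene for 19, so the region sets of these loci are partly those of their neighbours.

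**Figure D1:**
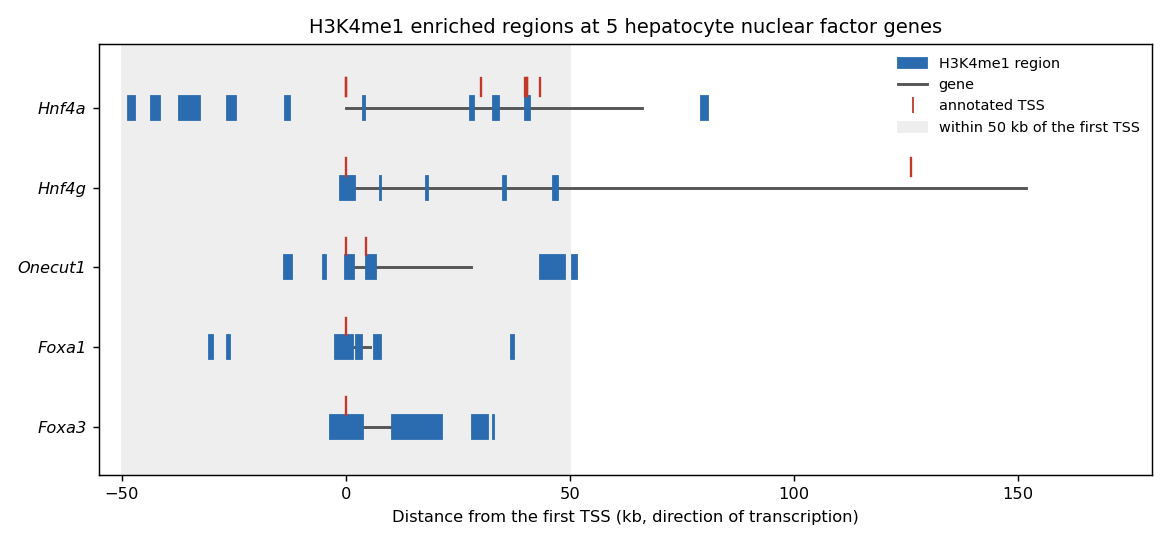
Map of the 31 H3K4me1 enriched regions (blue boxes) at the 5 genes, with each gene as a grey line and each annotated TSS as a red tick. The x axis is the distance in kb from the first TSS in the direction of transcription. At Hnf4g, Onecut1, Foxa1 and Foxa3 a box covers the first TSS, whereas at Hnf4a it does not.

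Hnf4a (chr2:163332544-163398646, plus strand; this and later positions are of mm9) had 10 regions, the largest number of the 5 genes under the 50 kb rule. The order rests on that rule: within 20 kb Hnf4a and Hnf4g had 5 regions each, and when each region was given to its closest TSS, Hnf4a had 2 and Hnf4g, Onecut1 and Foxa1 had 3 each. They covered 16.6 kb, or 11.6% of the 143 kb of sequence made up of the gene and 50 kb around its TSS. Transcripts of Hnf4a start at 7 positions, which form 4 promoters when TSS closer than 2 kb are joined. P2 holds the TSS at 163332544 and 163332674. An intermediate start lies at 163362755, P1 has coding starts at 163372923 and 163372924 and a non-coding start at 163372553, and the last start is at 163375819.

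No region covered P2, the promoter known as the main one in islets. The nearest region, of 400 bp from 163336401 to 163336800, began 3727 bp downstream of the TSS at 163332674, in an intron of Hnf4a and of 0610008F07Rik, a non-coding gene that runs antisense to the upstream part of Hnf4a. The nearest region upstream ended 12344 bp before the first P2 TSS, so that P2 lay in a stretch of 16.2 kb with no region. Stretches at least as long made up 39.6% of the 65630 spaces between neighbouring regions.

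P1, in contrast, lay in a region of 1000 bp, from 163372601 to 163373600, which reached 322 bp to the upstream side of the TSS at 163372923 and 677 bp into the gene, where UTR and coding sequence lie. The non-coding P1 start was 48 bp outside it. The intermediate start had no region over it but 1 on each side: a region of 1000 bp ended 1555 bp upstream, and a region of 1400 bp began 2646 bp downstream. Both lie in introns of Hnf4a and of 0610008F07Rik. Within 5 kb on each side of the TSS, regions covered 4.00% at P2, 24.0% at the intermediate start and 9.999% at P1. The median over the first TSS of all protein-coding genes was 12.0%, above the shares at both P2 and P1. Beyond P1 a stretch of 38.2 kb, which holds the rest of the gene, had no region.

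**Figure D2:**
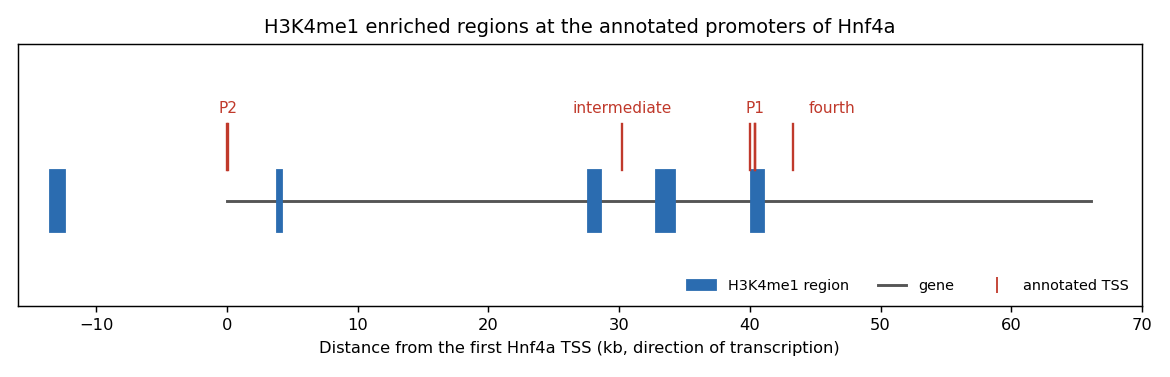
Map of Hnf4a with H3K4me1 enriched regions (blue boxes), the gene (grey line) and its 7 annotated TSS (red ticks). The x axis is the distance in kb from the first TSS, and the box that covers a TSS is the one at P1, about 40 kb downstream of P2.

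The pattern of Hnf4a, with the first promoter uncovered and a later one covered, was found in 15.3% of the 7751 protein-coding genes with 2 or more promoters. The first promoter was covered in 41.2% of them and no promoter in 43.5%. Of the 8749 protein-coding genes with a region over any TSS, 279 (3.19%) had a first promoter at least as far from a region as P2 of Hnf4a, although genes with 1 promoter cannot show this. Over all protein-coding genes the corresponding share was 37.5%.

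The other 6 regions of Hnf4a lay outside the gene. The widest, of 4.6 kb, covered coding sequence and UTR of Fitm2 and 2310001K24Rik 32.5 kb upstream of P2. A region of 1200 bp lay in R3hdml, the nearest coding gene upstream. Another 3 lay between genes upstream, and 1 of 1600 bp lay past the 3′ end of Hnf4a, 35982 bp from its last TSS and closest to the TSS of Ttpal.

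Hnf4g, the paralog of Hnf4a, is a longer gene (chr3:3508030-3659775, plus strand). Its 5 regions all overlapped the gene and covered 6.0 kb, or 2.65% of 226 kb, the lowest share of the 5 genes. A region of 3.4 kb, from 3506801 to 3510200, covered the main TSS, with 1229 bp upstream and 2170 bp downstream of it. The other 4 regions were intronic and narrow, from 400 to 1200 bp, at 7.6, 18.0, 35.2 and 46.2 kb from the TSS. The midpoint of the last was 665 bp from the start of AC107454.1, an annotated microRNA gene within Hnf4g.

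No region of Hnf4g reached beyond 47.4 kb downstream of the main TSS, in a gene of 152 kb. A second TSS at 3634150, of a transcript annotated as putative, was 78750 bp from the nearest region. From 3555401 the list held no region for 1647.6 kb. Spaces at least as long numbered 80 of the 65630 (0.122%). The list was analysed as given, and whether it is complete in this stretch was not tested. The region before the gene ended 118630 bp upstream of the TSS.

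The upstream sequences of Hnf4a P2 and Hnf4g shared a run of 13 bases at nearly the same distance from the TSS, from -52 to -40 in Hnf4a P2 and from -53 to -41 in Hnf4g. It was the longest run shared by any pair among the upstream sequences of 6 promoters (Hnf4a P2 and P1 and the first promoters of the other genes), in which the other 14 pairs shared 8 to 10 bases. Bases of the same stretch, from -53 to -44 of Hnf4a P2, also stood on the opposite strand of Onecut1 at -18 to -9. Of the 22350 first promoters of protein-coding genes, 3 held the run on either strand within 250 bases (0.0134%), and the other one was Cyp2c68. In Hnf4g it lay inside the H3K4me1 region and in Hnf4a P2 outside any region. This comparison was chosen after the sequences were seen, and the match is a description of these sequences.

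Onecut1 (chr9:74709728-74737591, plus strand) had 6 regions over 13.6 kb, or 13.0% of 105 kb. Both of its annotated starts were covered. A region of 2.0 kb, from 74709601 to 74711600, reached 127 bp upstream of the main TSS and 1872 bp downstream, over UTR and coding sequence. A second, of 2.2 kb from 74714201 to 74716400, covered the start of a non-coding transcript at 74714291. The space between them was 2.6 kb.

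Upstream of Onecut1, a region of 1800 bp lay at the start of Gm16551, a non-coding gene that runs through the locus on the same strand, and a region of 800 bp ended 4328 bp before the TSS. Downstream, 36.6 kb with no region took in the rest of the gene. The widest region of this locus, 5.6 kb from 74753001 to 74758600, lay beyond the gene outside any annotated gene, 43.3 kb from the main TSS, and a region of 1200 bp followed it.

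Foxa1, a short gene (chr12:58641618-58647108, minus strand), had 6 regions over 9.0 kb, or 9.0% of 100 kb. The widest, of 4.0 kb from 58645601 to 58649600, covered the TSS with 2492 bp upstream and 1507 bp downstream. A region of 1400 bp within the coding sequence began 2308 bp from the TSS, and another of 1600 bp lay just past the 3′ end. A region of 600 bp lay farther downstream, 36.9 kb from the TSS and outside any annotated gene. Regions covered 53.0% of the gene body, against a median of 4.76% over all protein-coding genes. Foxa1 is 5.49 kb long, and genes of like length were not compared. The 2 regions upstream, of 600 and 800 bp, lay in Ttc6, a coding gene on the opposite strand, and the latter took in UTR and coding sequence of Ttc6.

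Foxa3 (chr7:19598631-19608887, minus strand) lies among closely spaced genes. Under the 50 kb rule it had 4 regions, the lowest number of the 5 genes, but the highest covered share, 22.4% of 100 kb. Its number was also the lowest under 6 of 8 alternatives. The exceptions were the window of 100 kb, with 13 regions against 5 at Hnf4g, and regions of at least 1000 bp, with 3 against 2 at Hnf4g. The covered share of Foxa3 was the highest of the 5 genes under the 4 alternatives of window and width, though within 100 kb it was 23.1% against 22.9% at Hnf4a. A region of 7.4 kb, from 19605001 to 19612400, covered the TSS with 3513 bp upstream and 3886 bp downstream, and also UTR of Sympk, which starts beside it on the opposite strand. H3K4me1 over this pair of starts cannot be assigned to 1 of the genes. The widest region of all 5 loci, 11.2 kb from 19587401 to 19598600, ended just short of the 3′ end of Foxa3 and covered Irf2bp1. In the whole list, 2.01% of regions exceeded 10 kb. The other 2 regions lay at Mypop and Gm10676, and 1 of them was a single bin of 200 bp.

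**Figure D3:**
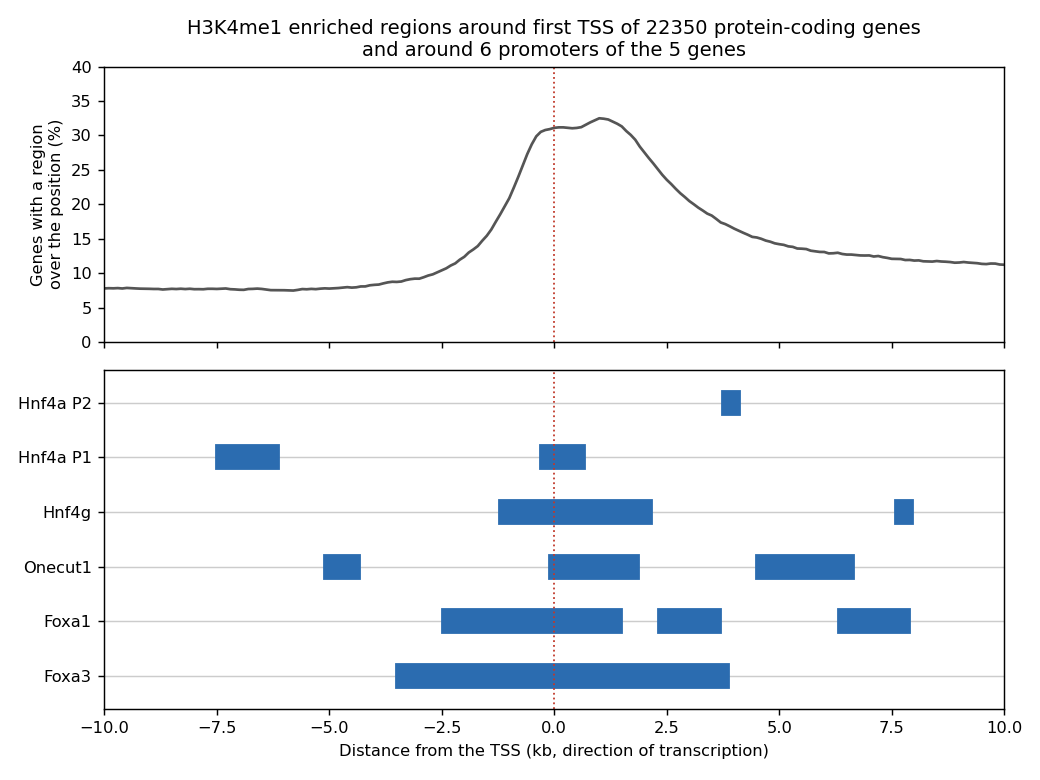
Upper panel: share (%) of the first TSS of 22350 protein-coding genes with an H3K4me1 enriched region over each position, every 100 bp, against distance from the TSS in kb. Lower panel: regions (blue boxes) around 6 promoters of the 5 genes, each drawn from its own TSS, where the box nearest to Hnf4a P2 begins 3727 bp downstream of the second P2 start and Foxa3 has the widest box over its TSS.

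Around the first TSS, within 5 kb on each side, regions covered 4.00% at Hnf4a, 34.0% at Hnf4g, 32.0% at Onecut1, 54.0% at Foxa1 and 74.0% at Foxa3. Over the first TSS of all protein-coding genes the median was 12.0%, with quartiles of 0 and 32.0%. In this order Hnf4a was at the 37.6 percentile, Onecut1 at 75.6, Hnf4g at 76.8, Foxa1 at 91.7 and Foxa3 at 98.0. Of the 5 genes, Foxa3 and Foxa1 therefore had the most covered sequence around their first start, and Hnf4a, at P2, the least. The region over the TSS of Foxa3 also covers UTR of Sympk and cannot be assigned to either gene.

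The promoters also differed in CpG content, which the choice of regions did not use. The ratio of observed to expected CpG within 500 bp of the TSS was 0.223 at the first start of Hnf4a P2, 0.271 at its second start, 0.304 at P1, 0.463 at Hnf4g, 0.595 at Foxa3, 0.784 at Onecut1 and 0.88 at Foxa1. In the 250 bases printed above, P2 holds 1 CpG and Onecut1 holds 31. The median over the first TSS of all protein-coding genes was 0.549. First TSS were split into 4 groups of like size by this ratio. From the lowest to the highest ratio, 5.6%, 29.0%, 51.2% and 38.6% were covered by a region. In the same order, 12.8%, 45.6%, 85.9% and 90.7% had a region within 2 kb. In the highest group, many uncovered TSS thus had a region close by. The first start of P2 falls in the lowest group and the second start in the next. The part of CpG content in the uncovered P2 was not tested.

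By number of regions, Hnf4a was at the 87.6 percentile of protein-coding genes, Onecut1 and Foxa1 at 60.7, Hnf4g at 52.2 and Foxa3 at 43.6. The number is not adjusted for the length of the span, which was 143 kb at Hnf4a and 226 kb at Hnf4g. The median span of all protein-coding genes was 100 kb. By regions per 100 kb, Hnf4a was at the 76.3 percentile, Foxa1 at 70.2, Onecut1 at 65.6, Foxa3 at 50.6 and Hnf4g at 33.7. The median of the 5 genes was 6 regions, and that of all protein-coding genes was 5, with quartiles of 2 and 8. By covered share the order changed. Foxa3 was at the 87.9 percentile, Onecut1 at 69.9, Hnf4a at 66.0, Foxa1 at 58 and Hnf4g at 31.4. The order of the 5 genes by number of regions and by covered share changed with the window. The median covered share was 11.6% for the 5 genes and 6.86% for all. These percentiles place each gene among the others in 1 library and are no test.

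**Figure D4:**
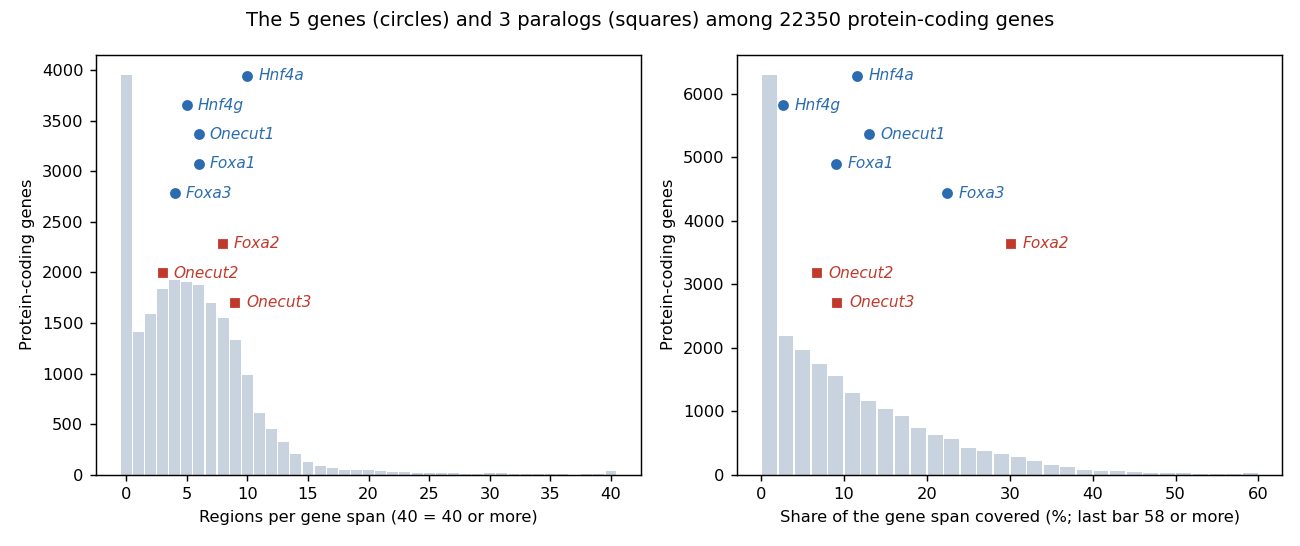
Histograms of 22350 protein-coding genes by the number of H3K4me1 enriched regions (left) and by the share (%) of the gene and its 50 kb surroundings that they covered (right). Blue circles give the 5 genes and red squares 3 paralogs at their x values, the height of a marker has no meaning, and Foxa2 lies further right by covered share than any of the 5 genes.

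Of the paralogs of these factors, Foxa2, Onecut2 and Onecut3 also had a region over a TSS. Foxa2 (HNF3β), a forkhead protein with a known role in mature β-cells, had 8 regions that covered 30.1% of its sequence and 100% of the gene body. Foxa1 and Foxa3, with 9.0% and 22.4%, were both below Foxa2. Among the Onecut genes, Onecut1 had the highest covered share at 13.0%, with 6.69% at Onecut2 and 9.20% at Onecut3. By number of regions and by share of the gene body the order was another: Onecut3 had 9 regions, with 19.5% of its body covered, Onecut1 had 6, with 14.6%, and Onecut2 had 3, with 9.23%. These differences are between loci of 1 library, with gene length not matched, and their error is unknown.

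Of 10 genes listed as targets of these factors in β-cells, 7 had a region over a TSS and 10 had one within 2 kb. Among all protein-coding genes 62.0% had a region within 2 kb. Among them, Abcc8, G6pc2 and Ins1 had covered shares of 57.6%, 25% and 9.0%. Of 14 genes listed as their targets in liver, 3 had a region over a TSS and 4 within 2 kb, while 3 had no region in the gene or within 50 kb of its TSS. Of all protein-coding genes, 3954 of 22350 had none. Among the first 4 in alphabetical order, Apoa2 was covered over 100% of its body, whereas the nearest region to a TSS was 16061 bp away at Afp, 44915 bp at Alb and 19636 bp at Apob.

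As islets are a mixture of cell types, which cells carried H3K4me1 at the 5 genes cannot be read from the list. Of 12 islet endocrine markers, 8 had a region no farther than 2 kb from a TSS and 1, Ins2, had a region over a TSS, against 62.0% and 39.1% of all protein-coding genes. At the other 4 the nearest region was 2105 bp away (Isl1), 3234 bp (Iapp), 7271 bp (Sst) and 21935 bp (Gcg). The counts within 2 kb were 6 of 6 for duct cells (Krt19, Krt7, Sox9, Cftr, Muc1 and Spp1), 1 of 8 for acinar cells, 2 of 8 for hepatocytes, 1 of 6 for leukocytes and 3 of 4 for endothelial cells. The lists overlap: all 8 hepatocyte markers are among the 14 liver targets, and 3 islet markers (Ins1, Ins2 and Pdx1) are among the β-cell targets, so these counts are not independent. Duct and acinar cells also use several hepatocyte nuclear factors, and their part in the regions of the 5 genes was not tested.

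The sequences of the 31 regions were searched on both strands for words of the factors themselves. TGTTTAC of Foxa factors was in 8 regions (25.8%), and on average in 28.6% of all regions of the same widths. ATCAATA of Onecut factors was in 6 regions (19.4%, against 16.4%). CAAAGTCCA of Hnf4 was in 0 regions, where 3.63% of regions of these widths held it. Of the 250 bases upstream of the first TSS of protein-coding genes, 2.73% of sequences held the Foxa word, 1.83% the Onecut word and 0.398% the Hnf4 word. The Foxa word stood at -131 to -125 of Foxa1 itself, inside the region over its TSS, and the Onecut word at -10 to -4 of Hnf4a P2. Matches of this length are descriptions of the sequence, and words that differ from these letters were not searched.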

How the data were processed

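H3K4me1 ChIP-seq of cytokine treated islets (1 pooled library) was used. Reads had been aligned to mm9 by the authors using bowtie2 (2.2.1 per the submitters' processing notes), and ChromHMM gave the enriched regions, of which the deposited list holds start and end positions and no count or score. The version and settings of ChromHMM are not given in the sources used here. All edges lie on a grid of 200 bp. Depth is unknown, so no interval was set on a region.

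Regions were counted from position 1 and set against GENCODE M1 of the same build, and 0 reached beyond a chromosome end. Percentiles over protein-coding genes count ties at their mean rank. The span of a gene is the gene with 50 kb around each TSS. The 5 genes were fixed by name, as were the related genes, target genes and markers, all chosen with earlier results of these data known. Up to 4 examples of each target list were taken in alphabetical order, some listed items are not reported here, and neighbours where a region overlapped them or had its closest TSS there. The written rule for Hnf4a P1, the next coding promoter below P2, fell on the intermediate start, so P1 was taken from the transcript with a consensus coding sequence and all starts are reported. No test was planned or run. Counting, distances and motif search were tested on simulated data. Python 3.11.15, numpy 2.4.6, pandas 2.3.3 and matplotlib 3.10.9 were used.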

Additional observations from a re-analysis of the deposited data

How the results depend on the processing

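Of 124 values recomputed under 11 alternatives, 89 stayed within a factor of 1.5 of the reported value (for the share of all genes, its exact 95% binomial interval, and for distances, 200 bp) and 35 moved. In each alternative that bears on it, all 5 genes had a region over a TSS (or within 1000 bp where that was the criterion). The alternatives computed for P2 of Hnf4a only removed regions or TSS or narrowed the window. They could not have placed a region over P2, so its uncovered state was not tested by them. The distance of P2 was not recomputed with merged regions. The number of regions at the 5 genes was 19 within 20 kb of a TSS, 55 within 100 kb and 12 where the closest TSS had to be that of the gene. The covered length was 41.9 kb within 20 kb and 139.5 kb within 100 kb, by construction. By gene the number ranged from 2 to 19 at Hnf4a, 2 to 5 at Hnf4g, 3 to 10 at Onecut1, 3 to 8 at Foxa1 and 1 to 13 at Foxa3. The percentile by number of regions was computed for the alternatives of window, width, merging and midpoint only, where it ran from 80.9 to 93.6 for Hnf4a, 30.9 to 80.9 for Hnf4g, 56.8 to 71.4 for Onecut1, 45.7 to 62.3 for Foxa1 and 35.9 to 72.4 for Foxa3, which within 100 kb was above Onecut1 and Foxa1. It was not computed for the closest TSS, where Hnf4a had 2 regions. The covered share under the alternatives of window and width ran from 5.81% to 22.9% at Hnf4a, 1.84% to 3.49% at Hnf4g, 9.87% to 14.2% at Onecut1, 5.8% to 17.5% at Foxa1 and 22.2% to 42.8% at Foxa3, and within 20 kb Foxa1 was above Onecut1 and Hnf4a. With regions of at least 1000 bp, the nearest region was 12344 bp from the P2 TSS at 163332544 and 12474 bp from that at 163332674. Regions then covered 0% within 5 kb of P2, and 35.7% of protein-coding genes had a covered TSS. That share was 36.2% with TSS of protein-coding transcripts and 56.4% with a region within 1000 bp. Within 2 kb of the TSS, 25% was covered at P1 and 0% at P2. With the intermediate start taken as P1, an alternative chosen after seeing the data, the distance was 1555 bp and the covered share 24.0%.

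Just inside the limit of 50 kb lay regions 46944 bp from a TSS of Hnf4a and 45910 bp from one of Onecut1, and just outside it regions at 51782, 53910 and 51714 bp from Hnf4a, Onecut1 and Foxa3. No paired analysis was possible because 1 library was used, and there was no replicate to leave out. The list has no score, so a stricter calling threshold was not tried other than by width.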
